A study of Mus musculus with 9 samples.

Results

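Krt6a, Krt6b, Krt16 and Krt17 are the stress keratins of the mouse epidermis, and they were taken by gene symbol as 4 of the 29205 genes in the deposited table. The table held RNA-seq counts from the back skin of male BALB/c mice aged 6 to 8 weeks, in 3 groups of 3 libraries. All animals, controls included, had their backs shaved and depilated. The control group was left without treatment. The IMQ group received 62.5 mg of 5% imiquimod cream on the back skin every day for 5 days, and the LYS group received the same cream together with Longkui Yinxiao soup, a herbal decoction given into the stomach, at what the study's methods call the high dose. Imiquimod is a Toll-like receptor agonist whose cream produces psoriasis-like lesions on mouse skin, and the design asks whether the decoction changes that skin. Skin was collected on day 13. The labels do not say whether the libraries of a group came from separate mice, so the p-values measure the spread between these libraries only.

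Keratins build the intermediate filaments of epithelial cells, and each filament pairs a type I with a type II protein. Basal keratinocytes of resting epidermis use the type II keratin Krt5 with the type I keratin Krt14, and cells that leave the basal layer switch to Krt1 with Krt10. The type II keratins Krt6a and Krt6b and the type I keratins Krt16 and Krt17 are kept low between hair follicles in resting skin. They are known to come on in interfollicular keratinocytes after wounding and in psoriatic plaques, where they are widely used as markers of activated keratinocytes. Hair follicles make Krt17 and some Krt6a and Krt16 in the outer root sheath even in healthy skin.

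The 4 genes lie as neighbouring pairs in the keratin clusters of GRCm38, all on the minus strand in GENCODE M21. Krt6a (ENSMUSG00000058354, 9 exons) spans chr15:101689910-101694307, and Krt6b (ENSMUSG00000023041, 9 exons) spans chr15:101676023-101680287, with 9622 bases between them. Krt5 begins 12762 bases beyond Krt6a. Krt16 (ENSMUSG00000053797, 8 exons) spans chr11:100246091-100248902, and Krt17 (ENSMUSG00000035557, 8 exons) spans chr11:100256217-100261029, with 7314 bases between them. Krt14 lies 38542 bases from Krt16 on its far side, and Krt42, another keratin gene, begins 1852 bases beyond Krt17.

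The type II pair is nearly the same in sequence. The coding sequences of Krt6a and Krt6b, taken from GENCODE M21 transcripts, were identical at 97.6% of 1665 aligned positions, with 37 substitutions and 3 gap positions. This bears on the separate values of Krt6a and Krt6b, because a short read from a stretch they share cannot be given to either gene by sequence alone. The windows shown first are the 60 coding bases where the pair differed most, at bases 817 to 876 of each coding sequence, which lie at chr15:101692484-101692543 for Krt6a and chr15:101678303-101678362 for Krt6b. Both are written 5′ to 3′ on the minus strand, and capitals mark the 10 bases that differ.
Krt6a: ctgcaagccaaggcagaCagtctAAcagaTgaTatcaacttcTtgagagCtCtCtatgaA
Krt6b: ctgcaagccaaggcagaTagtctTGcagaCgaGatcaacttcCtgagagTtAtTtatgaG
The next window, at coding bases 34 to 93 of both genes (chr15:101694156-101694215 and chr15:101680131-101680190), is shown because no base in it tells the pair apart.
Krt6a and Krt6b: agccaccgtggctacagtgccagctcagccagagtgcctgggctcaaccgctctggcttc
The longest coding run that the pair shared was 280 bases.

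The type I pair differed more. Krt16 and Krt17 were identical at 70.7% of aligned coding positions, below the 82.9% between Krt16 and Krt14. The windows shown here are the most alike and the least alike stretches of 60 coding bases within an exon, with differing bases in capitals and the minus strand written 5′ to 3′. The most alike stretch was at coding bases 346 to 405 of Krt16 (chr11:100248486-100248545) and 259 to 318 of Krt17 (chr11:100260648-100260707), with 1 difference.
Krt16: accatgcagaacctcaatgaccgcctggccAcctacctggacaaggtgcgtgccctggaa
Krt17: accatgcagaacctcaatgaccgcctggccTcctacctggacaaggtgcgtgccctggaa
The least alike stretch was at coding bases 35 to 94 of both genes (chr11:100248797-100248856 and chr11:100260872-100260931), with 19 differences.
Krt16: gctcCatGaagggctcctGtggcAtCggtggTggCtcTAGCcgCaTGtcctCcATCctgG
Krt17: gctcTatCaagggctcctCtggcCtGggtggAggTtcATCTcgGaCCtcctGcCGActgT
Across the whole transcripts, 34.0% of the 100-base windows of Krt6a and 30.6% of those of Krt6b also occurred in a transcript of another gene. The share was 24.3% for Krt16, through Krt14 and the pseudogene Gm11597, and 0% for Krt17. The read length and the counting of reads that match several genes are not given in the sources used here, so the split between Krt6a and Krt6b is uncertain.

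The counts summed to between 14658645 and 19609878 per library. Counts scaled to library size (CPM) were adjusted with edgeR's TMM factors, which compare libraries through the bulk of their genes, and these factors were 1.104 to 1.197 in the control, 0.790 to 0.915 in the IMQ and 0.978 to 1.099 in the LYS libraries. With library totals alone, the median log2 fold change of all genes moved from -0.06 to -0.51 for IMQ against control and from 0.04 to 0.29 for LYS against IMQ. Keratinocyte markers (Krt5, Krt14, Krt1, Krt10 and Trp63) summed to 4724 to 7903 CPM in the control, 34589 to 47087 in the IMQ and 15225 to 27434 in the LYS libraries. Hair follicle markers (4 of 5 present) summed to 1599 to 3432 CPM in the control libraries and to less than 1 CPM in every IMQ and LYS library, where 1 of the 4 was at 0 throughout. Fibroblast markers (5 of 5) summed to 21088 to 26893 CPM in the control, 3171 to 10283 in the IMQ and 8727 to 17022 in the LYS libraries, and adipocyte and skeletal muscle markers were likewise lower in IMQ than in control libraries, with LYS libraries at 854 to 2005 and 3285 to 6935 CPM. The part of these cell types in the keratin results was not tested. In bulk skin, fewer cells of a type and less RNA per cell cannot be told apart.

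Krt6a, a type II keratin of the outer root sheath and of activated epidermis, was a minor transcript in control skin. Its level per transcript length (FPKM) was 7.78, 5.31 and 15.1 in control libraries 1, 2 and 3. It was 532.5, 650.8 and 305.9 in the IMQ libraries and 615.5, 509.1 and 367.0 in the LYS libraries. Every treated library lay above every control library, and the LYS libraries fell inside the IMQ range on this scale. On the TMM-scaled CPM scale, LYS library 3 (808) was below the lowest IMQ library (917).

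Krt6b, its close relative, started as low and went higher. The FPKM of Krt6b was 11.4, 7.12 and 28.5 in the control, 2041, 2446 and 1417 in the IMQ and 2011, 1709 and 1341 in the LYS libraries. The ranges of the treated groups overlapped, with LYS library 3 the lowest of the 6. On the TMM-scaled CPM scale, LYS libraries 2 (3614) and 3 (2728) were below the lowest IMQ library (3923).

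Krt16, the type I keratin that pairs with the Krt6 proteins, was the most abundant member in both treated groups. The FPKM of Krt16 was 27.4, 17.3 and 55.0 in the control, 2964, 3544 and 2586 in the IMQ and 2892, 2198 and 1455 in the LYS libraries. LYS library 1 was inside the IMQ range on this scale and the other LYS libraries were below it. On the TMM-scaled CPM scale, all 3 LYS libraries (2072 to 4630) were below all 3 IMQ libraries (5015 to 7024).

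Krt17, a type I keratin of the follicle and of activated epidermis, was the exception at baseline. The FPKM of Krt17 was 359.6, 279.2 and 479.9 in the control libraries, above all other members there. It was 1009, 1522 and 732.8 in the IMQ and 2074, 1024 and 432.7 in the LYS libraries. LYS library 1 was the highest of all 9 libraries and LYS library 3 lay inside the control range, so the LYS libraries spanned more than the whole IMQ range.

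**Figure D1:**
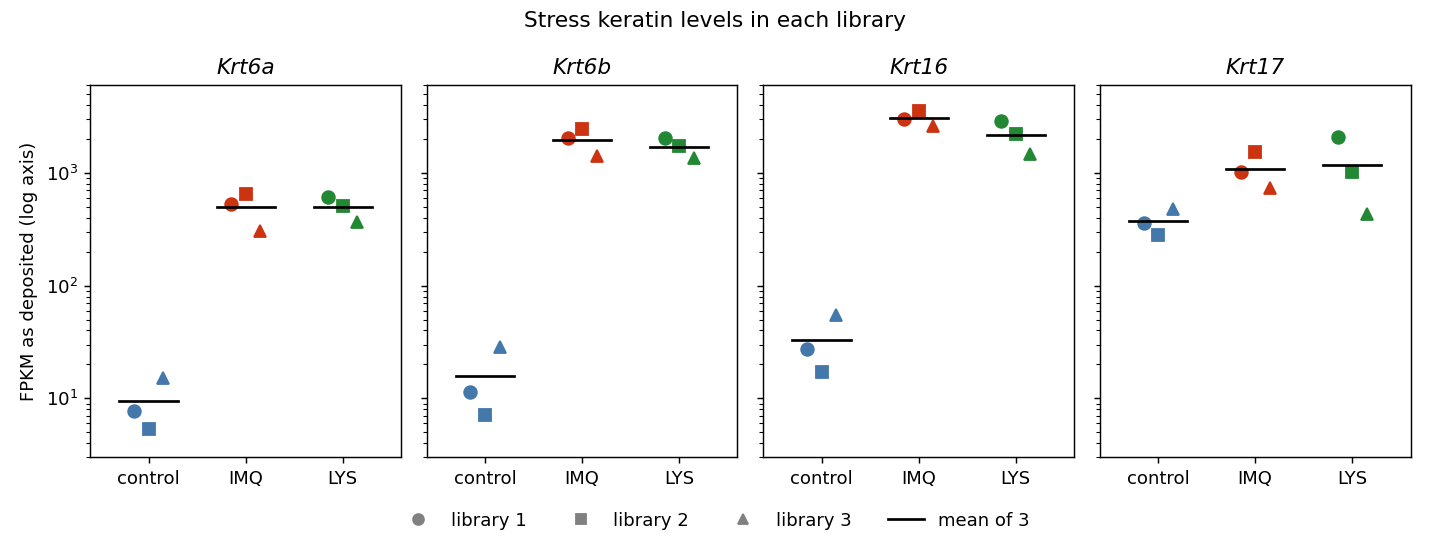
FPKM of each stress keratin (log axis) in the control, IMQ and LYS groups, with 1 point per library, a marker shape for each library number and a bar at the mean of 3. Krt6a, Krt6b and Krt16 of treated skin sit far above control skin in every library, whereas Krt17 starts at 279.2 to 479.9 in control skin and spreads from 432.7 to 2074 under LYS.

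The order of the members changed between control and treated skin. In control skin the mean FPKM fell from Krt17 (373 ± 101, SD, n = 3) to Krt16 (33.2 ± 19.5), Krt6b (15.7 ± 11.3) and Krt6a (9.40 ± 5.09). Krt17 stood apart, while the ranges of Krt16, Krt6b and Krt6a overlapped with their neighbours. In IMQ skin the order was Krt16 (3031 ± 482), Krt6b (1968 ± 519), Krt17 (1088 ± 401) and Krt6a (496 ± 175), and the ranges of Krt6b and Krt17 met between 1417 and 1522. In LYS skin the means were 2182 ± 719 for Krt16, 1687 ± 336 for Krt6b, 1177 ± 831 for Krt17 and 497 ± 125 for Krt6a, and each pair of neighbours overlapped. Among the 54 keratin genes of the table, Krt16 was 16th by mean FPKM in control skin, 4th in IMQ skin and 2nd in LYS skin. The corresponding places were 19, 5 and 4 for Krt6b, 21, 8 and 8 for Krt6a, and 7, 6 and 6 for Krt17.

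All 4 stress keratins rose in IMQ skin against control skin. A gene was called when its log2 fold change exceeded 0.58 in size and its p, from edgeR's quasi-likelihood F test, was under 0.05 after Benjamini-Hochberg adjustment over the 15976 genes tested. Of those genes, 24.1% were called higher and 26.9% lower. The log2 fold change of Krt6b was 7.45 ± 0.61 (SE), or 174-fold, with an edgeR adjusted p of 4.65e-05. That of Krt16 was 6.98 ± 0.50, or 127-fold (edgeR adjusted p = 2.87e-05). That of Krt6a was 6.19 ± 0.48, or 73.0-fold (edgeR adjusted p = 3.91e-05). Krt17 rose far less, by 2.01 ± 0.32, or 4.03-fold (edgeR adjusted p = 0.000978), and its 95% interval of 1.28 to 2.74 did not reach the intervals of the other members, the nearest of which began at 5.08. In all 4 genes the 3 IMQ libraries lay above the 3 control libraries in CPM, as 33.9% of the tested genes did. The call held for all 4 under every alternative setting and with any library left out.

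The basal keratins that the stress keratins join in activated epidermis rose as well, by smaller amounts than the Krt6 genes and Krt16. Krt14 rose by 3.07 ± 0.28 on the log2 scale, or 8.41-fold (edgeR adjusted p = 6.94e-05). Krt5 rose by 1.60 ± 0.23, or 3.04-fold (edgeR adjusted p = 0.000558). Krt17, with 4.03-fold, was therefore between Krt5 and Krt14. Beyond Krt6b the closest gene with a keratin symbol, the follicle keratin Krt75, lies 102118 bases away and fell, with a log2 fold change of -5.68 ± 0.45 (edgeR adjusted p = 3.98e-05). Gm5478, a keratin-like gene between them, went from 1 to 18 counts in control libraries to 344 to 679 in IMQ libraries. It shares 100-base windows with Krt6a and Krt6b, so how such reads were counted bears on its counts.

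No stress keratin was called different between LYS and IMQ skin. No gene of the 15460 tested was called in this comparison (0%), although 35.2% had an unadjusted p under 0.05 in edgeR's test. Of the members, 0 of 4 had such an unadjusted p. Krt16 had the most negative estimate, -0.72 ± 0.34 (SE) on the log2 scale, or 0.607-fold, with a 95% interval of -1.52 to 0.08 and an edgeR adjusted p of 0.172. The estimate for Krt6b was -0.47 ± 0.31 (interval -1.20 to 0.26, edgeR adjusted p = 0.309). For Krt6a it was -0.24 ± 0.34 (interval -1.04 to 0.55, edgeR adjusted p = 0.632). For Krt17 it was -0.12 ± 0.58, and its interval of -1.49 to 1.24 took in both a fall and a rise of over 2-fold (edgeR adjusted p = 0.895). These intervals do not show that the levels were alike. Their lower ends for Krt6a, Krt6b and Krt16 were smaller in size than the lower ends of the rises under imiquimod, 5.08, 6.04 and 5.84.

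Krt16 was the member nearest to a difference. Its 3 LYS libraries lay below all 3 IMQ libraries in CPM, as 19.1% of tested genes did in that direction. In DESeq2, which called 7.08% of 27402 genes higher and 5.08% lower in this comparison, Krt16 had an adjusted p of 0.0632 and 0 of 4 members were called. The single edgeR fit of all 9 libraries called 18.5% of 16392 genes and again 0 of 4 members. Without LYS library 1 the estimate for Krt16 was -1.02 with an edgeR adjusted p of 0.0517. With library totals alone the estimates of Krt6a and Krt17 turned to 0.0027 and 0.11, and without IMQ library 2 they turned to 0.049 and 0.24.

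The distance that LYS skin kept from control skin can be put on the scale of the imiquimod change itself. On log2(CPM + 1), with 0 at the control mean and 1 at the IMQ mean, the LYS libraries averaged 0.954 ± 0.0744 (SD, n = 3) for Krt6a, 0.931 ± 0.0497 for Krt6b and 0.882 ± 0.0820 for Krt16. LYS library 1 was the highest and LYS library 3 the lowest of the group for all 3 genes. For Krt17 the same 3 libraries were at 1.39, 0.816 and 0.158, around a mean of 0.788 ± 0.616, so LYS library 1 was beyond the IMQ mean and LYS library 3 was near the control mean.

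All 4 stress keratins were also called higher in LYS skin than in control skin, where edgeR called 15.1% of the 16003 genes tested higher and 12.9% lower. Krt6b was higher by 6.93 ± 0.60 (SE) on the log2 scale, or 122-fold (edgeR adjusted p = 0.000491). Krt16 was higher by 6.22 ± 0.55, or 74.7-fold (edgeR adjusted p = 0.000536), and Krt6a by 5.90 ± 0.47, or 59.9-fold (edgeR adjusted p = 0.000355). For these 3 genes every LYS library lay above every control library in CPM, as 24.9% of tested genes did, and the calls held under all alternatives. This comparison uses the same control libraries as IMQ against control.

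Krt17 was the weakest of these calls. Its log2 fold change was 1.86 ± 0.56, or 3.63-fold, with a 95% interval of 0.57 to 3.15 and an edgeR adjusted p of 0.0383, and 2 of 3 LYS libraries lay above the control range. The call was lost when control library 1, 2 or 3 or LYS library 1 or 2 was left out, with edgeR adjusted p between 0.0515 and 0.129. Without LYS library 1 the log2 fold change was 1.08, and without LYS library 3 it was 2.27 and the call held.

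**Figure D2:**
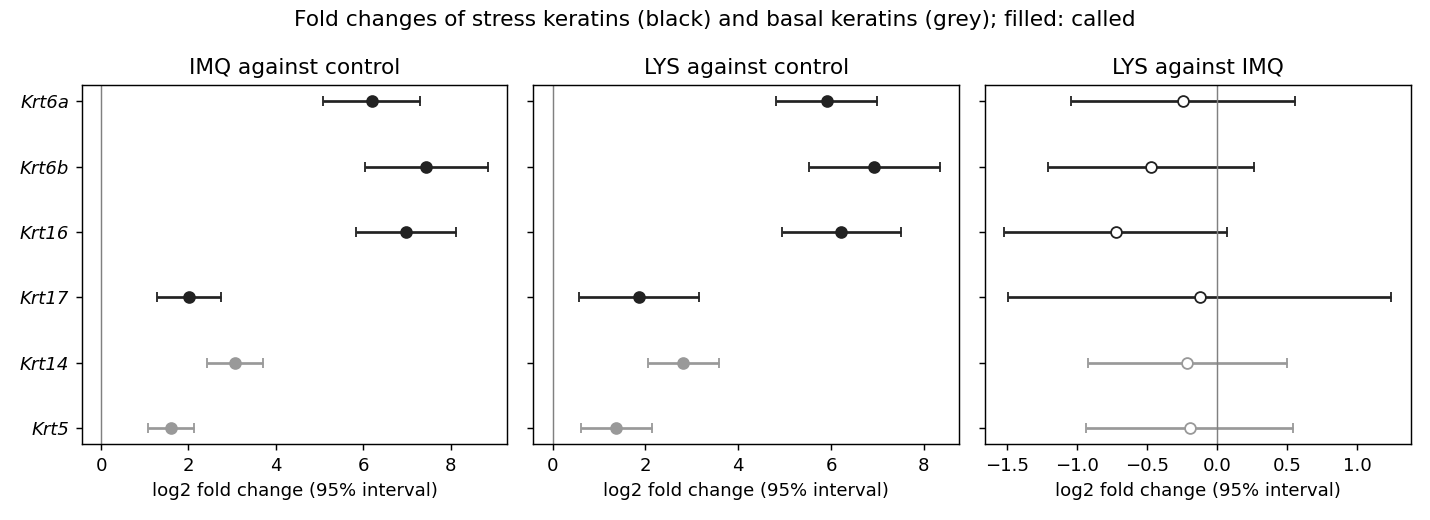
Log2 fold changes from edgeR with 95% intervals for the stress keratins (black) and the basal keratins Krt14 and Krt5 (grey) in the 3 comparisons, with filled points for called genes. Krt6a, Krt6b and Krt16 lie between 5.90 and 7.45 against control in both treated groups, Krt17 lies near the basal keratins, and every interval of LYS against IMQ crosses 0.

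Dividing each stress keratin by a basal keratin of the same library removes the library scaling and compares their RNA within whole skin. No protein or filament was measured. For 3 such ratios and the percent described below, 12 comparisons of groups were made with exact two-sided permutation tests, in which 3 against 3 libraries cannot go below p = 0.1. The ratio of Krt16 to Krt14, both type I, was 0.04996, 0.0389 and 0.0712 in control libraries 1 to 3. It was 0.671, 1.07 and 0.822 in the IMQ libraries and 0.610, 0.673 and 0.475 in the LYS libraries. Krt16 RNA was thus a small addition to Krt14 in control skin and close to its level in IMQ skin. How reads that Krt16 shares with Krt14 were counted bears on this ratio. The log2 ratio was higher by 4.02 in IMQ skin (exact permutation p = 0.1, adjusted 0.15), and LYS minus IMQ was -0.53 (exact permutation p = 0.2, adjusted 0.267).

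The type II pair changed against Krt5 in the same manner. The summed FPKM of Krt6a and Krt6b over that of Krt5 was 0.0437, 0.0314 and 0.0700 in the control, 1.96, 3.51 and 1.62 in the IMQ and 1.68, 2.43 and 1.98 in the LYS libraries. How reads shared by the pair were counted bears on this sum too. Krt6 RNA exceeded Krt5 RNA in every treated library and in no control library. The log2 ratio was higher by 5.61 in IMQ than in control skin (exact permutation p = 0.1, adjusted 0.15). LYS minus IMQ was -0.16 (exact permutation p = 0.9, adjusted 0.9).

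Krt17 moved the opposite way relative to Krt14. The ratio of Krt17 to Krt14 was 0.656, 0.627 and 0.621 in the control libraries, a spread of only 0.0185 (SD) around 0.635. It was 0.228, 0.458 and 0.233 in the IMQ and 0.437, 0.313 and 0.141 in the LYS libraries. All 6 treated libraries lay below all 3 control libraries, although mean Krt17 itself was higher in both treated groups. In LYS library 3, Krt17 itself was inside the control range. The log2 difference was -1.13 for IMQ against control and -1.24 for LYS against control (both exact permutation p = 0.1, adjusted 0.15). It was -0.11 for LYS against IMQ (exact permutation p = 0.9, adjusted 0.9).

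The balance of the type I members was thereby inverted. Krt17 RNA was 12.7 ± 3.73 (SD, n = 3) times Krt16 RNA in control skin, 0.351 ± 0.0737 times in IMQ skin and 0.493 ± 0.211 times in LYS skin, by FPKM. Summed Krt6a and Krt6b over summed Krt16 and Krt17, the type II to type I ratio of the members, was 0.0577 ± 0.0210 in control, 0.593 ± 0.0663 in IMQ and 0.707 ± 0.189 in LYS skin. In treated skin the type I members thus stayed above the type II members in every library, with the ratio highest in LYS library 3 (0.905). How reads shared by Krt6a and Krt6b were counted bears on this order too.

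**Figure D3:**
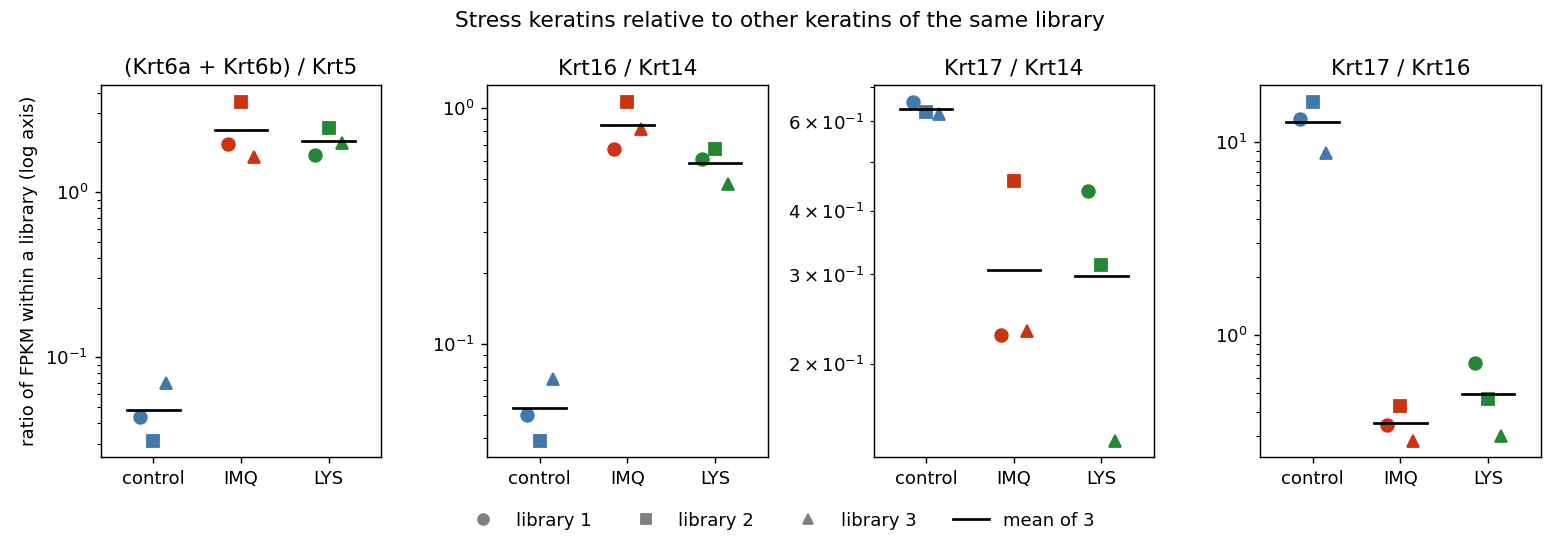
Ratios of FPKM within each library (log axes) for Krt6a plus Krt6b to Krt5, Krt16 to Krt14, Krt17 to Krt14 and Krt17 to Krt16, with 1 point per library and a bar at the mean of 3. The first pair of ratios is higher and the second pair lower in all 6 treated libraries than in all 3 control libraries, and LYS library 3 has the lowest Krt17 to Krt14 ratio, 0.141.

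The stress keratins took a larger place among the keratins of treated skin. Of the summed FPKM of 13 keratins (the 4 members and 9 keratins of the basal and suprabasal epidermis), the members made up 13.5%, 11.9% and 12.1% in control libraries 1 to 3. They made up 34.5%, 38.2% and 26.3% in the IMQ libraries and 40.8%, 44.1% and 33.7% in the LYS libraries. Control skin owed most of its share to Krt17 and treated skin to Krt16 and Krt6b. The share was 20.5 percentage points higher in IMQ than in control skin (exact permutation p = 0.1, adjusted 0.15). It was 6.52 points higher in LYS than in IMQ skin, where the ranges overlapped (exact permutation p = 0.3, adjusted 0.36). Without IMQ library 3 this difference was 3.17 points and without LYS library 2 it was 4.22 points.

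The suprabasal keratins Krt1 and Krt10, the largest part of the remainder in control skin, had negative estimates under LYS. Their log2 fold changes for LYS against IMQ were -1.45 ± 0.41 and -1.62 ± 0.36 (SE; edgeR adjusted p = 0.0677 and 0.0591), neither of them called. DESeq2 and the single fit of all 9 libraries called both lower, with 4 of the 9 epidermal keratins called lower in each. Over all genes DESeq2 called 5.08% lower, and the single fit called 18.5% in either direction. The summed FPKM of Krt6a, Krt6b and Krt16 over that of Krt1 and Krt10, a ratio chosen after its values were seen and given without a test, was 0.0390, 0.0254 and 0.0436 in the control libraries. It was 0.852, 0.754 and 0.445 in the IMQ and 1.21, 1.68 and 1.03 in the LYS libraries. These 3 genes together thus exceeded the suprabasal pair in all LYS libraries and in no IMQ library. Krt17 is not in this ratio.

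**Figure D4:**
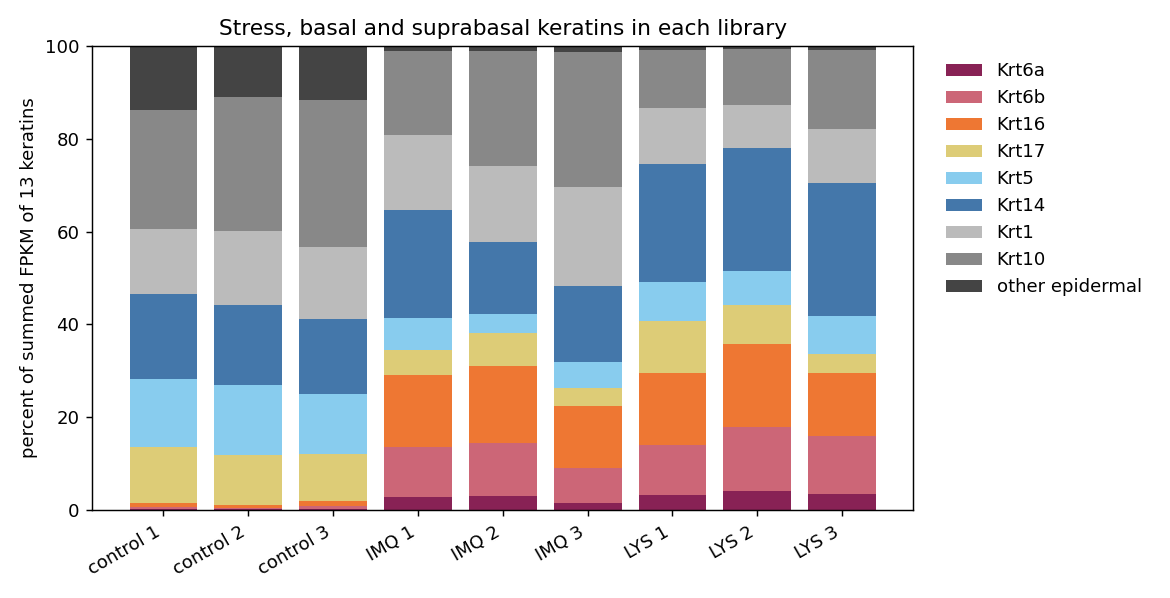
Percent of the summed FPKM of 13 keratins taken by each stress keratin, by Krt5, Krt14, Krt1 and Krt10 and by the other epidermal keratins together, with 1 stacked bar per library. The coloured stress keratin blocks at the base reach 11.9% to 13.5% in control, 26.3% to 38.2% in IMQ and 33.7% to 44.1% in LYS libraries.

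Of all counts of a library, the 4 stress keratins took 0.0645%, 0.0489% and 0.0931% in the control, 1.21%, 1.49% and 0.909% in the IMQ and 1.37%, 1.008% and 0.683% in the LYS libraries. By mean FPKM over all 29205 genes, Krt16 moved from place 1491 in control skin to 19 in IMQ skin and 16 in LYS skin. Krt17 was already at place 111 in control skin and moved to 44 and 33.

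Over the 9 libraries, Krt6a, Krt6b and Krt16 followed each other closely and Krt17 followed them less. In log2(CPM + 1), Pearson's r was 0.999 between Krt6a and Krt6b, 0.998 between Krt6b and Krt16, and 0.996 between Krt6a and Krt16, against 0.836 to 0.854 between Krt17 and the others. These r describe 9 libraries that fall into control and treated clusters, so a high r can come from the difference between these clusters alone. Among 10373 genes with a mean CPM of at least 10, the gene most like Krt16 was S100a9, an alarmin of neutrophils and activated keratinocytes (r = 0.999), followed by Tmigd1 and the small proline-rich genes Sprr2e, Sprr2h and Sprr2d. S100a9, Lce3f and Sprr2e were among the 5 genes most like Krt6a and Krt6b as well. So was Gm5478, which shares 150-base windows with Krt6a and held 388 to 625 counts in LYS libraries. The genes most like Krt17 were others, led by Stx3, a membrane fusion protein (r = 0.987), and Plet1, a surface protein of follicle cells (r = 0.971), with Zc3h18, Ankrd17 and Ubqln4 after them. Such an r does not measure the size of a change. Apart from Plet1, these genes changed little. Mean FPKM in control, IMQ and LYS skin was 2.54, 2.83 and 3.14 for Stx3. It was 6.13, 5.81 and 6.67 for Zc3h18, 3.49, 2.97 and 3.54 for Ankrd17, and 13.6, 13.7 and 14.9 for Ubqln4.

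Stress keratin genes are known to respond to ligands of the interleukin-1, interleukin-17, interleukin-20 and EGF families and to Tnf, Ifng, Il6 and Osm. Of 22 ligands from these groups, 19 were found among the deposited genes. The interleukin-36 ligands Il36a, Il36b and Il36g were not found by symbol and so were not examined. For IMQ against control 15 were tested: 14 rose, beside 24.1% of all genes. Egf alone fell (-0.93 ± 0.34, edgeR adjusted p = 0.0423). The median log2 fold change was 3.91, beside -0.06 over all genes. Some ligands were near 0 in control libraries, such as Il22 (0 CPM) and Il17a (mean 0.0162 CPM). They passed the filter on low counts through their IMQ libraries and could only rise, so this count and median are a description. Among the 5 most abundant, Il1b rose by 9.56, Hbegf by 4.61, Il1a by 3.73, Tgfa by 3.48 and Ereg by 2.63 on the log2 scale. In LYS skin 11 of 13 tested ligands were called higher than in control skin and 0 lower, beside 15.1% and 12.9% of all genes. Ligands near 0 in control libraries, such as Il19 (mean 0.0161 CPM), could only rise here too. Between LYS and IMQ skin edgeR called 0 of 16. DESeq2 called 2 of 19, both lower, beside 5.08% of all genes. Of the 16 edgeR estimates 7 were positive and 9 negative, from -1.48 for Il1b to 1.01. The estimate for Hbegf, an EGF family member, was -0.38.

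Receptors for these ligands changed in both directions. For IMQ against control 10 of 15 (beside 24.1% of all genes tested) rose and 2 (beside 26.9%) fell. Il17rc, a subunit of the interleukin-17 receptor, rose by 2.26, Erbb3 by 2.11, Il1rl2, the interleukin-36 receptor, by 1.12 and Tnfrsf1a by 0.96 on the log2 scale. Il6st, the subunit shared by receptors of the interleukin-6 family, fell by 0.94. For LYS against control 7 rose and 2 fell, beside 15.1% and 12.9% of all genes, so the falls were near the share of all genes. Between LYS and IMQ skin edgeR called 0 of 15, while DESeq2 called 2 higher and 7 lower, beside 7.08% and 5.08% of all genes.

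Transcription factors known to act on keratin genes mostly rose. Of 21, 16 rose and 2 fell in IMQ against control skin (24.1% and 26.9% of all genes), with a median of 1.42. Junb, an AP-1 subunit, rose by 3.14, Cebpb by 2.64, Klf4, a factor of barrier formation, by 2.03, Fosl2 by 1.57 and Stat3, which carries interleukin-22 and interleukin-6 signals, by 1.43 on the log2 scale. In LYS against control skin 12 rose and 1 fell (15.1% and 12.9% of all genes). Set against IMQ skin, LYS skin had 0 of 21 called by edgeR, and DESeq2 called 1 higher and 2 lower, near the 7.08% and 5.08% of all genes.

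Proteins that bind or anchor keratin filaments mostly rose as well. Of 15 tested, 9 rose and 1 fell in IMQ against control skin, beside 24.1% and 26.9% of all genes. The median was 2.09, near the 2.01 of Krt17 and below the 6.19 to 7.45 of the other members. The filament-bundling protein Flg rose by 3.67, the desmosomal plaque proteins Jup, Pkp1 and Dsp by 2.59, 2.59 and 2.09, and Sfn, a 14-3-3 protein known to bind Krt17, by 2.21 on the log2 scale. In LYS against control skin 8 rose and 1 fell (15.1% and 12.9% of all genes). LYS and IMQ skin differed in 0 of 15 by edgeR, and DESeq2 called 1 of 16 higher and 8 lower (7.08% and 5.08% of all genes).

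Other products of activated keratinocytes rose with the stress keratins. Of 13 tested in IMQ against control skin all 13 rose, beside 24.1% of all genes, with a median of 5.71. Among them were S100a9 (9.75), S100a8 (9.60), Sprr2d (9.47), Sprr1b (5.71) and Ivl (3.08). Defb4, at 0 in all control libraries, passed the filter on low counts through its IMQ libraries. Such a gene could only rise, so the count of rises and the median are a description. S100a8 and S100a9 are also major products of neutrophils. A sum of 4 leukocyte markers was 82.0 to 129 CPM in control, 10084.5 to 13212.5 in IMQ and 2853 to 7739 in LYS libraries, but S100a8 made up nearly all of it in treated skin. The other leukocyte markers did not follow S100a8: Ptprc, carried by all leukocytes, averaged 63.0, 78.0 and 172 CPM in control, IMQ and LYS skin, Itgam of myeloid cells 30.2, 27.3 and 57.3, and Cd3e of T cells 1.24, 2.59 and 3.83. The part of leukocytes in the results was not tested. In LYS against control skin 12 of 13 rose, beside 15.1% of all genes. Genes near 0 in control libraries could likewise only rise there. With LYS set against IMQ, edgeR called 0 of 14. DESeq2 called 5 of 14, all lower, beside 5.08% of all genes, and the single fit of all 9 libraries called 1, also lower.

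RNA of cell division genes went the other way. Mki67, Top2a, Pcna, Ccnb1 and Cdk1, 5 of 5, were called lower in IMQ than in control skin, beside 26.9% of all genes. The falls were 0.89 to 1.47 on the log2 scale. In LYS skin 5 of 5 were also lower than in control skin, beside 12.9%. Between LYS and IMQ skin edgeR called 0 of 5. For Ki67 and PCNA protein the study reports a rise in the IMQ group and a reduction with LYS, by Western blot and staining of skin sections. Whole-skin RNA and protein are unlike measures, and the reason was not tested. Keratins of the hair follicle fell alongside: 16 of the 17 tested were called lower in IMQ than in control skin, beside 26.9% of all genes. In LYS against control skin 16 were called lower, beside 12.9%. Several, such as Krt26, Krt31 and Krt72, were at 0 in all treated libraries and passed the filter through their control libraries. Such genes could only fall, so these counts are a description. For LYS against IMQ, 2 follicle keratins were tested. Krt79 of the upper follicle fell by 2.15 on the log2 scale in IMQ skin, and its estimate for LYS against control was -0.71 and not called. Krt71, Krt25, Krt73 and Krt27 of the inner root sheath were among those called lower in both comparisons. Krt17, which follicles also make, was the member with the highest control level and the smallest rise. What share of control Krt17 RNA came from follicles was not tested.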

How the data were processed

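RNA-seq libraries of back skin, 9 in all and 3 per group, were analysed. The authors deposited whole-number read counts per Ensembl gene without normalization, together with FPKM. Per the submitters' processing notes HISAT2, HTSeq 0.13.5 and GRCm38 were used. Strandedness and the treatment of reads matching several genes are not given in the sources used here. The deposited FPKM equalled the count per kilobase of GENCODE M21 exon length and per counted reads of the library, scaled as FPKM is, without TMM. No value column lacked a sample (0).

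Counts were tested with edgeR 4.0.16 in R 4.3.3 (TMM, filterByExpr, glmQLFit, glmQLFTest, Benjamini-Hochberg adjustment), each fit holding the 6 libraries of the compared groups, and the code was tested on simulated data. FPKM was used for levels between genes and for ratios, which were compared with exact permutation tests (scipy 1.17.1). Replicates differed by more than counting noise and were kept apart. Alternatives were DESeq2 1.42.0, DESeq2 size factors, library totals, no filter, an absolute log2 fold change over 1, all 9 libraries in a single fit, a replicate block and leaving out each library. Sequences and positions come from GENCODE M21 on GRCm38, aligned with Biopython 1.88.

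The members, gene lists and comparisons were chosen with earlier results of these data known. The genes named are the members, ratio denominators, the closest keratin genes on the chromosome and the 5 genes most like each member. From each list up to 5 genes with the highest mean CPM are named. Egf is named because it alone fell in its list. Python 3.11.15 and matplotlib 3.10.9 drew the figures.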

Additional observations from a re-analysis of the deposited data

How the results depend on the processing

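Of 267 values under alternative settings, 8 changed direction and 6, all of Krt17 in LYS against control, lost their call, which took the members called there from 4 to 3. The rise of all 4 stress keratins in IMQ against control skin and the absence of calls among the 4 in LYS against IMQ skin held in every setting. For LYS against IMQ, library totals alone turned the log2 fold change of Krt6a to 0.0027 and that of Krt17 to 0.11. With each library left out in turn the value ran from -0.48 to 0.049 for Krt6a and from -0.87 to 0.28 for Krt17, the log2 ratio of Krt17 to Krt14 from -0.46 to 0.35 and that of the Krt6 pair to Krt5 from -0.39 to 0.17. The positive values came without IMQ library 2 and, for Krt17 and its ratio, also without LYS library 3. The share of the members among 13 keratins, LYS minus IMQ, ran from 3.17 to 9.44 points. For LYS against control, Krt17 ran from 1.08 to 2.27 with a library left out.

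Nothing in the labels says that libraries of equal number share an animal, litter or day. Correlations of same-numbered deviations ran from -0.46 to 0.20, and not every library correlated best with its own number. Deviations from a mean of 3 libraries constrain one another, so these correlations cannot exclude a pairing. With the replicate block, Krt17 in LYS against control was 1.59 and no longer called (edgeR adjusted p = 0.105), and 3126 in place of 4476 genes were called there. For LYS against IMQ, 0 genes were called in edgeR's main test, 3334 by DESeq2, 3040 with all 9 libraries in a single fit, 2419 without the filter, 1873 without IMQ library 1 and 4262 without LYS library 1. With 3 libraries per group, differences between LYS and IMQ smaller than the intervals given were not detectable. The exact tests of ratios could not reach 0.05.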

Other observations

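The FPKM of Krt6b over that of Krt6a was 1.56 ± 0.288 (SD, n = 3) in control, 4.07 ± 0.484 in IMQ and 3.43 ± 0.202 in LYS libraries, a ratio that depends on how reads shared by the pair were counted. The antisense gene Gm49428, which overlaps Krt6a, held at most 13 counts in any library, beside 252 to 26763 counts for Krt6a.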
